A study of Mus musculus with 8 samples.

Results

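The genes described here are NRF2 (gene Nfe2l2), its inhibitor KEAP1 (Keap1) and 8 of its canonical target genes, which serve haem breakdown, glutathione, thioredoxin and quinone chemistry. They were chosen by gene symbol. All 10 were found among the 26848 genes of the deposited table, and all 10 passed the filter on low counts. They were measured by RNA-seq in RAW264.7, an established mouse cell line with macrophage properties. The cells grew on polyetheretherketone (PEEK), an implant polymer. Of the 8 libraries, 4 came from nano/microstructured PEEK (structured 1 to 4) and 4 from smooth PEEK (smooth 1 to 4). The labels give no treatment, culture time or genetic change for either surface, so the surface is the stated difference. All libraries come from 1 cell line. The labels number most libraries as biological replicates without saying whether they were separate cultures, so the spread behind each p-value is that between these 8 samples and may be technical.

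NRF2 is a transcription factor that is made and destroyed continuously. KEAP1 binds it and hands it to a CUL3 ubiquitin ligase, and oxidants or electrophiles that modify KEAP1 let NRF2 build up, enter the nucleus and, with a small MAF partner, bind antioxidant response elements. BACH1 competes for the same elements and leaves them when it binds haem, which bears most on Hmox1. Because NRF2 is controlled largely at the protein level, its own transcript is not a direct measure of its activity. In macrophages the pathway is known for handling haem iron and for limiting oxidant damage.

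Library totals were 64660379 to 69885018 count units on structured PEEK and 64479829 to 73098735 on smooth PEEK. Expression is given as CPM, counts scaled to a library total of 1000000 after TMM normalization. All 9 macrophage markers were tested and none changed, and their summed level was 6260 to 6415 CPM on structured and 5944 to 6344 CPM on smooth PEEK. Transcripts of other cell types were also present. Of 12 neutrophil markers 11 were in the table and 5 could be tested, and all 5 were higher on structured PEEK. The 11 summed to 14.8 CPM in structured 1 and 51.1 to 55.2 CPM in structured 2 to 4, against 0.438 to 1.92 CPM on smooth PEEK. Lcn2 made up most of the sum in structured 1, at 11.1 CPM, and in every smooth library, at 0.396 to 1.64 CPM. In structured 2 to 4 it had 15.7 to 17.4 CPM. On smooth PEEK 7 of the 11 were at 0 in every library: Ngp, Ltf, Mmp8, Elane, Mpo, Retnlg and Cxcr2. The 15 hepatocyte markers summed to 126 to 434 CPM on structured and 62.6 to 299 CPM on smooth PEEK, with none called and none at 0 in all libraries of a group. The 11 skeletal muscle markers summed to 15.2 to 21.6 CPM on structured and 18.7 to 61.3 CPM on smooth PEEK, with 3 called lower. Most of each structured sum was Tnni2, at 13.6 ± 0.733 CPM on structured and 12.7 ± 2.47 CPM on smooth PEEK (SD, n = 4 each). Every other muscle marker had a lower mean on structured PEEK. Of 8 erythroid markers 6 were in the table and summed to 4.67 to 8.16 CPM on structured and 3.04 to 4.56 CPM on smooth PEEK, with none called. The part of these transcripts in the results below was not tested. In bulk RNA fewer cells of a type and less RNA per cell cannot be told apart.

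Of the 10 genes, Hmox1 and Osgin1 fell on structured PEEK and none rose (edgeR quasi-likelihood test, Benjamini-Hochberg adjustment over 16006 genes, threshold 0.05). Over all genes tested, 2.75% were called lower and 1.01% higher. At an unadjusted edgeR p under 0.05 there were 4 lower and 0 higher among the 10, adding Gclm and Txnrd1, against 10.6% lower and 8.14% higher over all genes. DESeq2 and limma voom each called 3 lower, Hmox1, Osgin1 and Txnrd1, and 0 higher. By voom 2.73% of all genes tested were lower and 0.943% higher. By DESeq2 the shares were 8.2% and 5.16% of the 10726 genes to which it gave an adjusted p. Nqo1 had no adjusted p in DESeq2 and could not be called there. In 4 of the 10, Hmox1, Osgin1, Gclm and Txnrd1, every structured library lay below every smooth library, which was so for 7.03% of all genes tested. The median log2 fold change was -0.08 over the 10 genes and -0.12 over the 8 targets, against 0.01 over all genes tested. Of the 8 targets 6 had negative and 2 positive values, beside 7814 negative and 8192 positive among the 16006 genes tested.

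**Figure D1:**
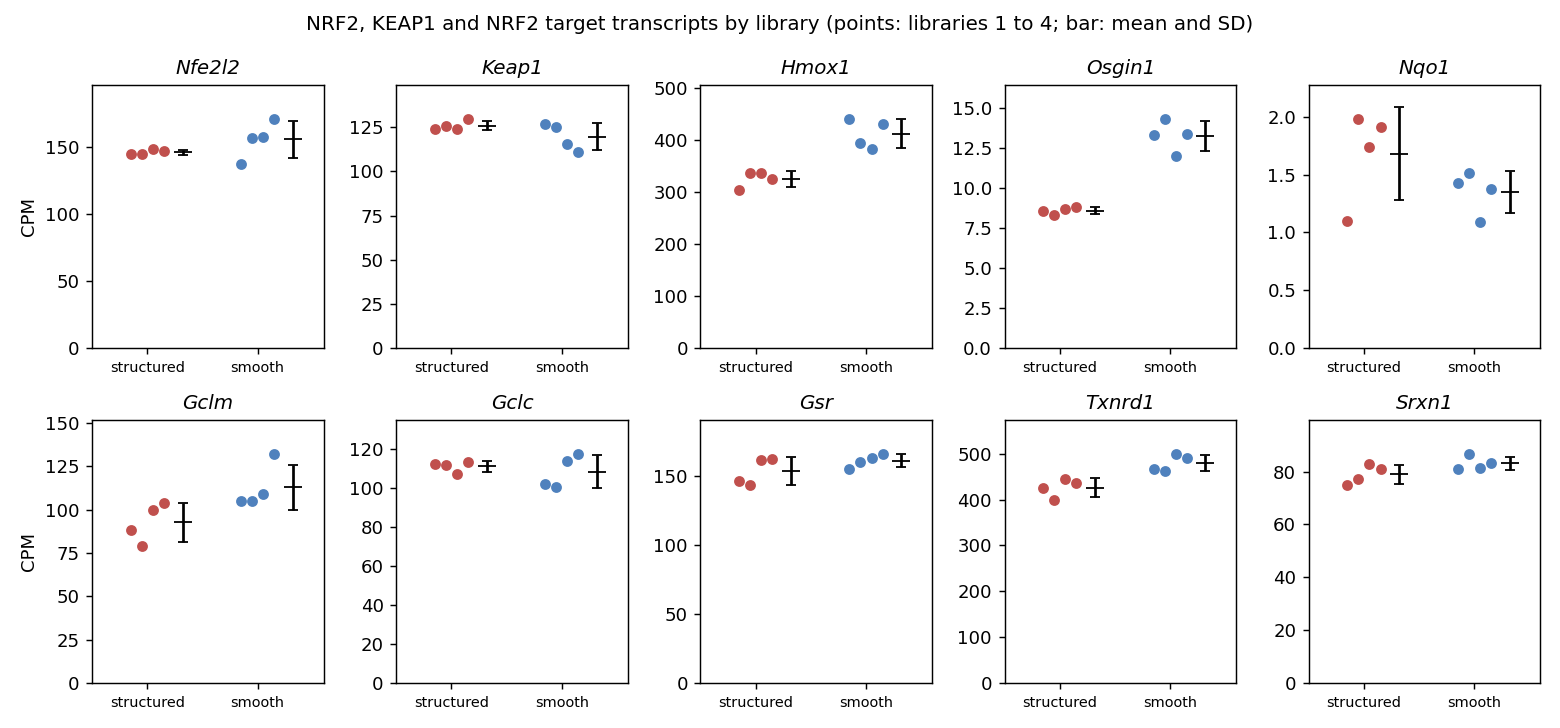
CPM of each of the 10 genes in every library, structured left of smooth; points are libraries 1 to 4 and the bar is the mean with its SD. The groups are separate for Hmox1, Osgin1, Gclm and Txnrd1, and overlap for the other 6 genes.

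Per length, Hmox1 was the most abundant of the 10, at 173.9 ± 7.82 FPKM on structured and 219.6 ± 16.8 FPKM on smooth PEEK (SD, n = 4 each). FPKM is the authors' value scaled to gene length and library depth, and allows genes to be compared. Txnrd1 (59.8 FPKM over all 8 libraries) and Gsr (53.4 FPKM) came next and overlapped in their range over libraries. Nfe2l2 followed at 37.2 FPKM, apart from its neighbours. Gclc (27.3 FPKM), Srxn1 (26.9 FPKM) and Keap1 (24.5 FPKM) formed a run in which each overlapped the next. Gclm was at 15.3 FPKM, Osgin1 at 3.82 FPKM and Nqo1 at 0.909 FPKM, with no overlap between neighbours. Among all genes tested, Hmox1 lay at percentile 98.5 of mean FPKM, Osgin1 at 50.9 and Nqo1 at 30.6.

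Of the regulators, Nfe2l2 had 145, 145, 148 and 147 CPM in structured 1 to 4, against 138, 157, 158 and 171 CPM in smooth 1 to 4. The structured libraries lay close together and inside the smooth range, whose lowest library was smooth 1. Its log2 fold change was -0.09 ± 0.06 (SE; edgeR adjusted p = 0.432). It was -0.15 without smooth 1 (adjusted p = 0.0811) and -0.05 without smooth 4 (adjusted p = 0.737). Keap1 had 124, 126, 124 and 129 CPM on structured and 127, 125, 115 and 111 CPM on smooth PEEK. Smooth 1 and 2 were level with the structured libraries and smooth 3 and 4 below them, and the log2 fold change was 0.07 ± 0.05 (SE; edgeR adjusted p = 0.461), or 0.04 without smooth 4. The ratio of Nfe2l2 to Keap1 in FPKM, the factor over its inhibitor, was 1.45, 1.42, 1.48 and 1.40 on structured PEEK, against 1.34, 1.55, 1.69 and 1.904 on smooth PEEK. The groups overlapped through smooth 1, and the difference of -0.16 on the log2 scale did not pass (two-sided exact permutation test, p = 0.2, adjusted p = 0.2 over 3 ratios).

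Hmox1 encodes the inducible haem oxygenase, which splits haem into biliverdin, carbon monoxide and iron. It had 302, 336, 336 and 324 CPM in structured 1 to 4, against 439, 393, 382 and 430 CPM in smooth 1 to 4. The highest structured libraries, 2 and 3, stayed below the lowest smooth library, smooth 3. The mean fell by 21.1% relative to smooth PEEK, a log2 fold change of -0.34 ± 0.05 (SE; edgeR adjusted p = 0.0110). With any 1 library left out it stayed at -0.38 to -0.31, with adjusted p between 0.0155 and 0.0474. The constitutive haem oxygenase gene Hmox2 had 83.9 ± 1.88 CPM on structured and 81.1 ± 4.84 CPM on smooth PEEK (SD, n = 4 each; edgeR adjusted p = 0.664). The ratio of Hmox1 to Hmox2 in FPKM was 4.61, 4.97, 5.20 and 4.81 on structured PEEK, against 7.46, 5.80, 5.83 and 6.74 on smooth PEEK. The groups were separate, with a log2 difference of -0.39 (exact permutation test, p = 0.0286, the smallest that 4 against 4 can give; adjusted p = 0.0429 over 3 ratios). The ratio does not depend on how libraries are scaled. Structured 1, with the lowest neutrophil marker sum of its group, had the lowest Hmox1. Structured 4, with the highest sum, had less Hmox1 than structured 2 and 3. A link between the 2 was not tested.

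**Figure D2:**
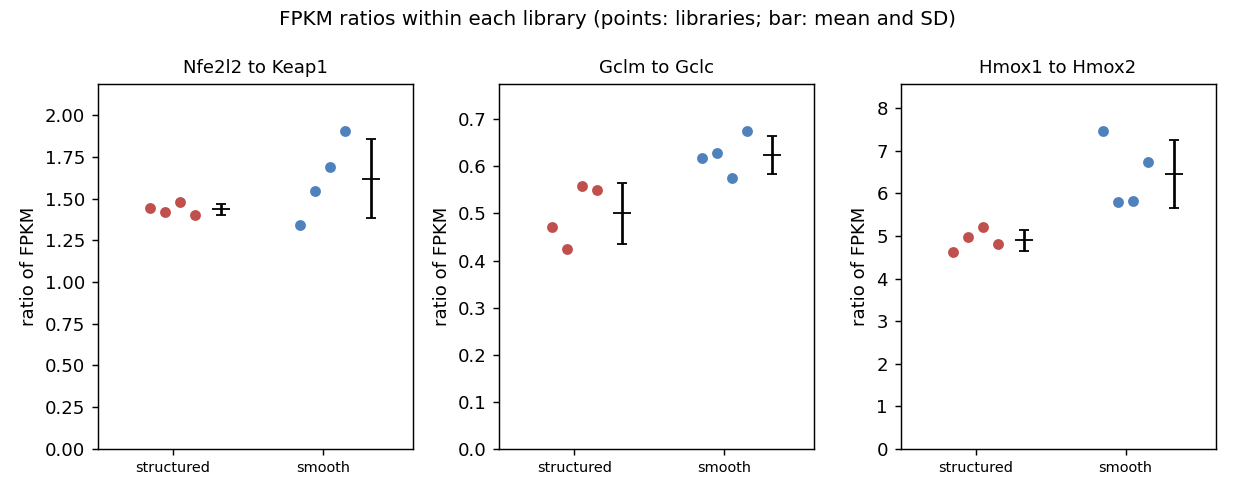
Ratios of FPKM within each library for Nfe2l2 to Keap1, Gclm to Gclc and Hmox1 to Hmox2, structured left of smooth; points are libraries and the bar is the mean with its SD. The structured libraries lie below all smooth libraries for the last 2 ratios and inside their range for the first.

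Osgin1 encodes an oxidative stress-induced growth inhibitor and showed the most negative fold change of the 10. It had 8.54, 8.32, 8.70 and 8.81 CPM on structured PEEK, against 13.33, 14.30, 12.04 and 13.36 CPM on smooth PEEK. The structured libraries lay close together and well below the lowest smooth library, smooth 3. The mean fell by 35.2% relative to smooth PEEK, a log2 fold change of -0.63 ± 0.09 (SE; edgeR adjusted p = 0.00689), and with any 1 library left out adjusted p was 0.00971 to 0.0294.

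RefSeq promoter windows (GRCm38.p6, 250 bases before to 50 after a start) matched 7 of the 10 genes, with 9 windows; Hmox1, Gclc and Gsr were not among them. The antioxidant response element core was searched as TGACNNNGC on both strands, and the form with an AP-1 core as TGANTCAGC; a site can match both, which occurred in 0.454% of all 32851 windows. The second form was chosen after the windows had been read. It was found in Osgin1 and Srxn1, and in 1.19% of all windows. The core was found in Nfe2l2, Srxn1, Gclm and 1 of 3 Txnrd1 windows, and in 12.4% of all windows. The windows of Osgin1 (chr8:119436897-119437196, plus strand) and Srxn1 (chr2:152105274-152105573, plus strand) are shown because they share the rarer form but only Osgin1 passed the test. Capitals mark the matches.
Osgin1: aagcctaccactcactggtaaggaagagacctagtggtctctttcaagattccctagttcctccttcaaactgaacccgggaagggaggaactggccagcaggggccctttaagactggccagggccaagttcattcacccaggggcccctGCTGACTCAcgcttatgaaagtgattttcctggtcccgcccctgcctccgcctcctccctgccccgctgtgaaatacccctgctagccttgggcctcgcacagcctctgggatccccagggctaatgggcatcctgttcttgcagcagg
Srxn1: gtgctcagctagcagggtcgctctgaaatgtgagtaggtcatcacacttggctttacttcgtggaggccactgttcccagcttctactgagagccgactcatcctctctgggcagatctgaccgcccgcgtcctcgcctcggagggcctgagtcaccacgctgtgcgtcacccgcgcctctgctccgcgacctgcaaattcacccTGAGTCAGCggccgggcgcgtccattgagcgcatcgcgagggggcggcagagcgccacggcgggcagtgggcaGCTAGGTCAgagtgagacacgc
In Osgin1 the match lies on the minus strand and begins 99 bases before the start. In Srxn1 the AP-1 form lies on the plus strand, 45 bases before the start, and a core match on the minus strand begins 28 bases after it. The RefSeq start of Osgin1 lies inside the span of the gene in the deposited table. These matches describe letters and not bound sites.

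Srxn1 encodes sulfiredoxin, which repairs over-oxidised peroxiredoxins. It had 74.9, 77.1, 82.9 and 81.1 CPM on structured PEEK, against 81.1, 86.7, 81.4 and 83.3 CPM on smooth PEEK. Structured 3 lay among the smooth libraries, and the other structured libraries lay below them, structured 4 by a small margin, with a log2 fold change of -0.07 ± 0.04 (SE; edgeR adjusted p = 0.423). Txnrd1, the cytosolic thioredoxin reductase gene, had 425, 398, 444 and 437 CPM on structured PEEK, against 467, 461, 499 and 490 CPM on smooth PEEK. The groups were separate, and structured 2 was the lowest. Its log2 fold change of -0.17 ± 0.04 (SE) missed the threshold at an edgeR adjusted p of 0.0520. Over 20 alternatives it ran from -0.19 to -0.14, with adjusted p from 0.00193 to 0.149, and 6 of them passed, among them DESeq2, voom and the fit without structured 3 (adjusted p = 0.0494).

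Gclm and Gclc encode the modifier and the catalytic subunit of glutamate-cysteine ligase, the rate-limiting enzyme of glutathione synthesis. Gclm had 88.4, 79.1, 99.9 and 104 CPM on structured PEEK, against 105, 105, 109 and 132 CPM on smooth PEEK. The groups were separate by a small margin, structured 4 against smooth 2, and smooth 4 stood above the other smooth libraries. The log2 fold change was -0.28 ± 0.09 (SE; edgeR adjusted p = 0.116), and ran from -0.34 to -0.20 with any 1 library left out, with -0.20 without smooth 4 (adjusted p = 0.235). Gclc had 112, 112, 107 and 113 CPM on structured PEEK, against 102, 100, 114 and 117 CPM on smooth PEEK. The structured libraries lay inside the smooth range, with a log2 fold change of 0.04 ± 0.05 (SE; edgeR adjusted p = 0.803), from 0.00 without smooth 2 to 0.08 without smooth 4.

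The ratio of Gclm to Gclc in FPKM was 0.471, 0.424, 0.559 and 0.549 on structured PEEK, against 0.617, 0.627, 0.576 and 0.674 on smooth PEEK. Structured 1 and 2 were the lowest, and the groups were separate. The means were 0.501 ± 0.0648 on structured and 0.624 ± 0.0405 on smooth PEEK (SD, n = 4 each), a log2 difference of -0.32 (exact permutation test, p = 0.0286; adjusted p = 0.0429 over 3 ratios). The antisense gene Gm17494 overlaps Gclm, and 296 of its 8421 annotated exon bases (GENCODE M21) are also Gclm exon. The protocol marks strand, but no source used here says whether counting used it, so reads from that stretch cannot be assigned and the Gclm values carry that uncertainty. Keap1 likewise shares 510 exon bases with the antisense gene Gm16754, whose mean count was 2.77% of that of Keap1. Gm17494 had 61.5, 25.4, 46.7 and 66.7 CPM on structured PEEK, against 14.8, 27.8, 35.6 and 17.6 CPM on smooth PEEK (edgeR adjusted p = 0.0805). Its mean count was 35.7% of that of Gclm. Gclm and Gm17494 summed to 143 ± 27.6 CPM on structured and 137 ± 13.4 CPM on smooth PEEK (SD, n = 4 each). This sum takes in every count of Gm17494, although the 296 shared bases are a small part of its exons. They are also a small part of the 6291 exon bases of Gclm. The sum therefore cannot tell how many reads were assigned to the wrong gene. The part of the shared bases in either count was not tested.

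Gsr encodes glutathione reductase, which returns oxidised glutathione to its reduced form with NADPH. It had 146, 143, 162 and 162 CPM on structured PEEK, against 155, 160, 163 and 166 CPM on smooth PEEK. Structured 1 and 2 lay below all smooth libraries and structured 3 and 4 among them (log2 fold change -0.07 ± 0.05, SE; edgeR adjusted p = 0.498). Nqo1 encodes a quinone reductase often used as an NRF2 marker. It was scarce in these cells, at 1.10, 1.98, 1.73 and 1.91 CPM on structured PEEK, against 1.43, 1.51, 1.09 and 1.37 CPM on smooth PEEK, from 70 to 134 count units per library. Structured 2 to 4 lay above every smooth library, and structured 1 at the level of the lowest, smooth 3. The log2 fold change was 0.31 ± 0.24 (SE; edgeR adjusted p = 0.546), and 0.47 without structured 1 (adjusted p = 0.297). Structured 2 to 4 also held the higher neutrophil marker sums given above; the part of those transcripts in the Nqo1 values was not tested.

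**Figure D3:**
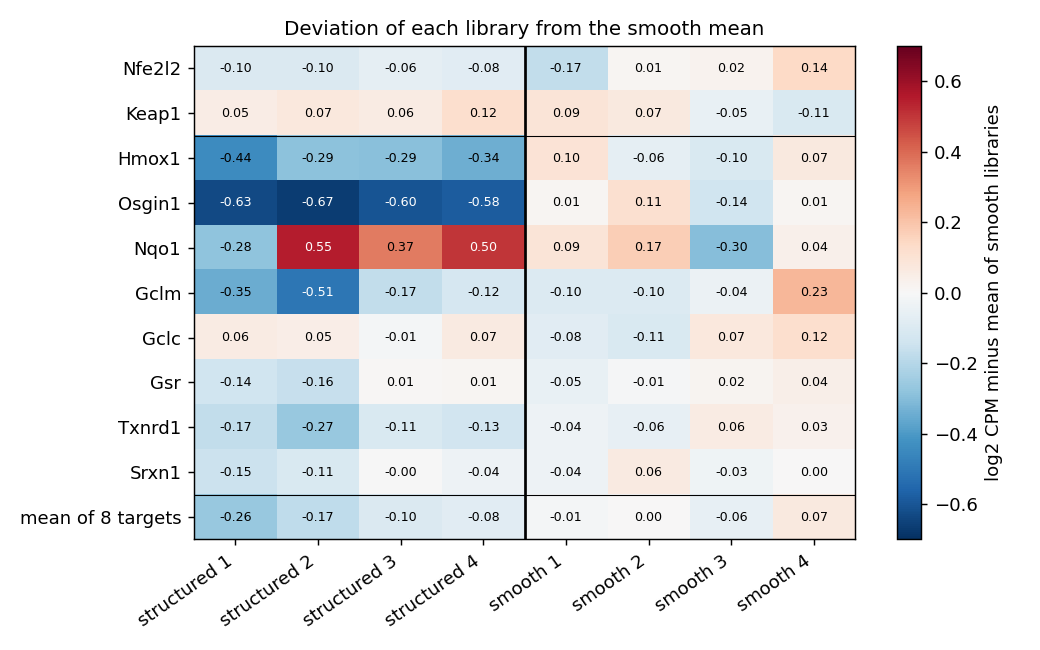
Log2 CPM of each gene in each library minus the mean of the smooth libraries, with structured libraries on the left and smooth on the right; blue is lower and red higher, and the bottom row is the mean of the 8 targets. Hmox1, Osgin1, Gclm, Txnrd1 and Srxn1 are below the smooth mean in all 4 structured libraries. The means of the 8 targets are -0.26, -0.17, -0.10 and -0.08 in structured 1 to 4.

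The targets were also set side by side within each library. Averaged over the 8 targets, the deviation from smooth PEEK was -0.26, -0.17, -0.10 and -0.08 in structured 1 to 4 on the log2 scale, against -0.01, 0.00, -0.06 and 0.07 in smooth 1 to 4. These averages include Hmox1 (-0.44 to -0.288) and Osgin1 (-0.667 to -0.585). They also include the scarce Nqo1, at -0.282, 0.552, 0.366 and 0.501 in structured 1 to 4. The averages therefore do not show a shift of every target. Structured 1 had 7 of the 8 targets below the smooth mean, structured 2 and 3 had 6 and structured 4 had 5. Smooth 1, 2 and 3 had 5 each and smooth 4 had 0. The smooth libraries themselves set that mean, so their counts are not like for like with the structured ones. The share of all genes below the smooth mean in each library was not computed. Hmox1, Osgin1, Gclm, Txnrd1 and Srxn1 lay below the smooth mean in all 4 structured libraries, with Srxn1 at only -0.004 in structured 3.

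**Figure D4:**
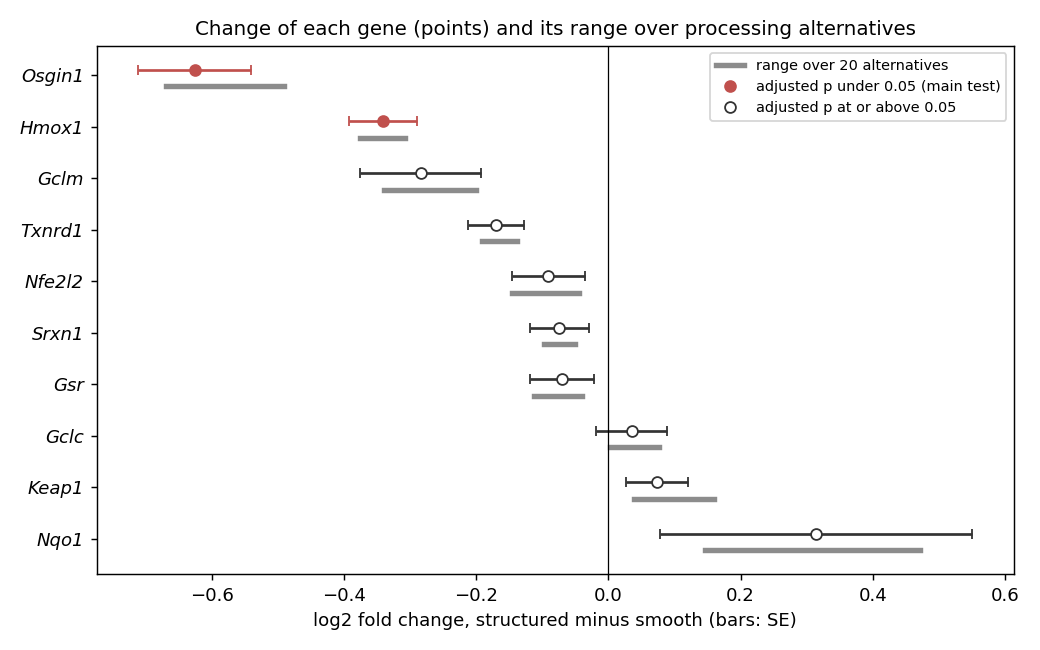
Log2 fold change of each gene, structured minus smooth, with its SE (points and whiskers) above its range over 20 processing alternatives (grey bars); filled points passed the edgeR test. The ranges of Hmox1 and Osgin1 end at -0.31 and -0.49, and no gene changed sign.

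In the wider pathway 62 of 63 other genes could be tested, in 6 lists; Bach2 was too low. Among them 4 fell and none rose by edgeR, against 2.75% and 1.01% of all genes. At an unadjusted p under 0.05 there were 16 lower and 6 higher, beside 10.6% and 8.14% of all genes. DESeq2 called 9 lower and 3 higher, beside 8.2% and 5.16% of the genes to which it gave an adjusted p. Voom called 5 lower and 0 higher, beside 2.73% and 0.943% of all genes. The median log2 fold change over the 62 was -0.01.

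Among 12 tested regulators and partners of NRF2, Sqstm1 fell. It encodes p62, a cargo receptor of selective autophagy that also binds KEAP1. It had 466, 466, 502 and 491 CPM on structured PEEK, against 577, 549, 549 and 596 CPM on smooth PEEK, with the groups separate. The log2 fold change was -0.24 ± 0.04 (SE; edgeR adjusted p = 0.0142), and the highest adjusted p was 0.0509, its call being lost without structured 2 or structured 4. The list median was -0.07, with 10 negative values, beside 7814 negative among the 16006 genes tested. At an unadjusted edgeR p under 0.05, 5 of the 12 were lower and 0 higher, beside 10.6% and 8.14% of all genes. Cul3, the ligase scaffold, had -0.07 ± 0.05 and Bach1 -0.13 ± 0.05 (SE; edgeR adjusted p = 0.510 and 0.227). Mafg, a small MAF partner, had -0.14 ± 0.05 (SE; edgeR adjusted p = 0.153). Gsk3b, a kinase that marks NRF2 for degradation (-0.22 ± 0.06), and Sesn2, a sestrin of the stress response (-0.40 ± 0.11), had edgeR adjusted p-values of 0.0524 and 0.0702 and were called lower by DESeq2. Apart from Sqstm1, the genes of this list were named after their values were seen.

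In glutathione supply and use, Slc7a11 and Slc3a2 fell among 12, with a list median of 0.03. The pair forms the cystine importer that feeds glutathione synthesis. Slc7a11 had 92.4, 77.8, 97.0 and 104 CPM on structured PEEK, against 122, 114, 119 and 145 CPM on smooth PEEK, and Slc3a2 averaged 212 ± 16.0 CPM on structured and 251 ± 14.2 CPM on smooth PEEK (SD, n = 4 each). The libraries were separate for both. The log2 fold changes were -0.43 ± 0.09 and -0.25 ± 0.06 (SE; edgeR adjusted p = 0.0278 and 0.0420). Both lost the call without structured 1, structured 2, structured 4, smooth 3 or smooth 4, and Slc3a2 also without smooth 2, with adjusted p up to 0.119. Neither passed by limma on FPKM, with no filter on low counts, or after correction for GC content and length. At an unadjusted edgeR p under 0.05, 2 of the 12 were lower and 3 higher, beside 10.6% and 8.14% of all genes. Downstream of the ligase, Gss, the glutathione synthetase gene, had 0.14 ± 0.05 and the peroxidase gene Gpx1 0.15 ± 0.04 (SE; edgeR adjusted p = 0.107 and 0.0731), and DESeq2 called Gpx1 higher; both were named after their values were seen.

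In haem and iron handling Fth1 fell among 9 genes, with a list median of -0.10. It encodes the ferritin heavy chain, which stores iron such as that released from haem. It had 4915, 5104, 5548 and 5286 CPM on structured PEEK, against 6084, 6548, 6269 and 6861 CPM on smooth PEEK. The groups were separate, with structured 1 the lowest as for Hmox1. The log2 fold change was -0.30 ± 0.04 (SE; edgeR adjusted p = 0.00732), kept with any 1 library left out and lost by limma on FPKM (adjusted p up to 0.0609). DESeq2 also called Slc40a1, the iron exporter ferroportin. At an unadjusted edgeR p under 0.05, 5 of the 9 were lower and 0 higher, beside 10.6% and 8.14% of all genes. The biliverdin reductase genes Blvra and Blvrb, named like Slc40a1 after their values were seen, act after Hmox1 and had 0.05 ± 0.05 and 0.04 ± 0.06 (SE; edgeR adjusted p = 0.665 and 0.823).

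The other 3 lists had no call by edgeR. Among 13 thioredoxin and peroxiredoxin genes 2 were lower and 3 higher at an unadjusted p under 0.05, DESeq2 called 1 lower and 2 higher (the peroxiredoxin genes Prdx2 and Prdx4, named after their values were seen), and voom 1 lower. Over all genes those shares were 10.6% and 8.14% unadjusted, and 2.73% lower by voom. By DESeq2 they were 8.2% and 5.16% of the genes to which it gave an adjusted p. Txn1, thioredoxin itself and the most abundant of them per length, had 0.09 ± 0.05 (SE; edgeR adjusted p = 0.347). Cat, the catalase gene, named after its values were seen, had 173 ± 17.8 CPM on structured and 215 ± 19.3 CPM on smooth PEEK (SD, n = 4 each; edgeR adjusted p = 0.0508) and was the gene called lower by DESeq2 and voom. Among 6 NADPH genes 1 was lower at an unadjusted p under 0.05, the transketolase gene Tkt, which was called by DESeq2 and not by voom. The most abundant of them per length, in FPKM, G6pdx, the entry enzyme of the pentose phosphate pathway, had 0.02 ± 0.03 (SE; edgeR adjusted p = 0.832). Among 10 quinone, carbonyl and conjugation enzymes 1 was lower at an unadjusted p under 0.05, Ptgr1, and none was called by DESeq2 or voom; Tkt and Ptgr1 were named after their values were seen. The most abundant per length, in FPKM, Akr1a1, an aldehyde reductase gene, had 0.07 ± 0.03 (SE; edgeR adjusted p = 0.330).

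**Figure D5:**
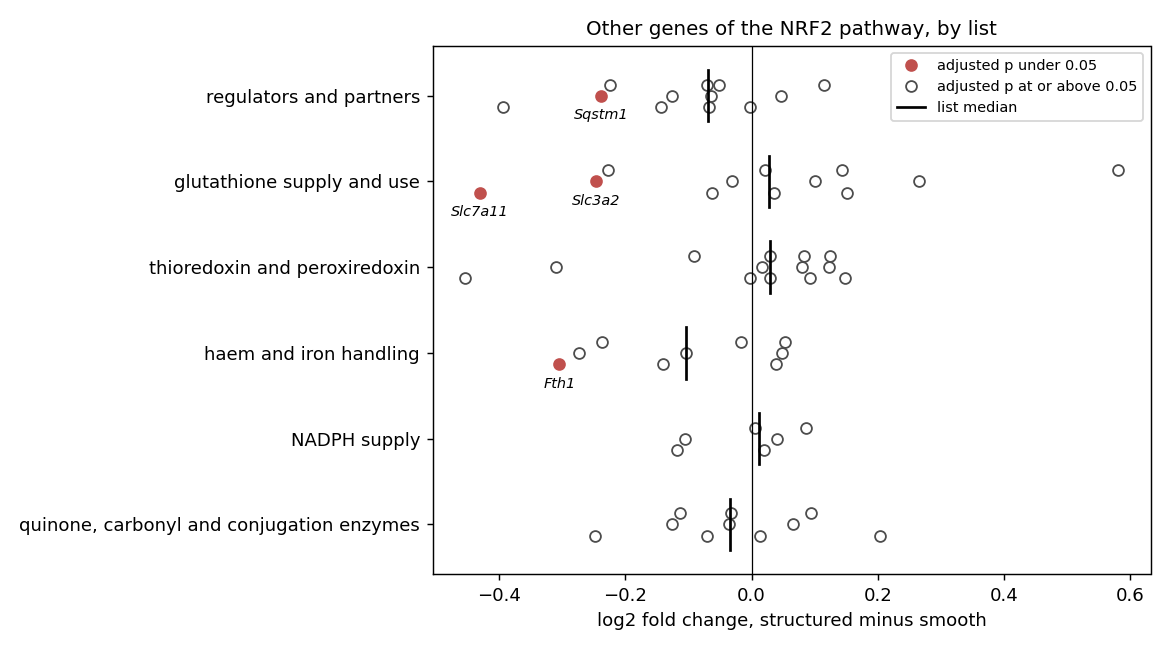
Log2 fold change, structured minus smooth, of each tested gene in 6 further lists of the pathway; filled points passed the edgeR test and are named, open points did not, and the black line is the list median. Sqstm1, Slc7a11, Slc3a2 and Fth1 lie at -0.24, -0.43, -0.25 and -0.30, and the medians between -0.10 and 0.03.

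For the called genes, the 3 genes most alike over the 8 libraries were taken among 6518 genes with a mean of at least 5 FPKM in either group, by the root-mean-square difference of log2 CPM centred on each gene's mean. For Hmox1, whose own SD over the 8 libraries was 0.198, they were Plekhm1 (difference 0.063), Ski (0.071) and Pianp (0.072). For Osgin1, with an SD of 0.340, they were Rusc2 (0.089), Anpep (0.125) and Slc6a8 (0.132). Plekhm1 averaged 119 ± 3.07 CPM on structured and 150 ± 1.21 CPM on smooth PEEK, and Rusc2 averaged 52.6 ± 1.93 CPM on structured and 75.3 ± 2.28 CPM on smooth PEEK (SD, n = 4 each). All 6 were lower on structured PEEK with separate groups, which follows from how they were chosen.

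In the deposited table Hmox1 (ENSMUSG00000005413) lies on chromosome 8, 75093621 to 75100589, plus strand. Osgin1 (ENSMUSG00000074063) lies on chromosome 8, 119434124 to 119446256, plus strand. Txnrd1 (ENSMUSG00000020250) lies on chromosome 10, 82833951 to 82897712, and Gclm (ENSMUSG00000028124) on chromosome 3, 122245557 to 122270732, both on the plus strand. Nfe2l2 (ENSMUSG00000015839) lies on chromosome 2, 75675513 to 75704641, and Keap1 (ENSMUSG00000003308) on chromosome 9, 21229730 to 21239361, both on the minus strand. The others are Nqo1 (ENSMUSG00000003849, chromosome 8, 107388225 to 107403206, minus strand), Gsr (ENSMUSG00000031584, chromosome 8, 33652523 to 33698163), Gclc (ENSMUSG00000032350, chromosome 9, 77754535 to 77794485) and Srxn1 (ENSMUSG00000032802, chromosome 2, 152105516 to 152109322), the last 3 on the plus strand. The counts cover each gene as a whole and do not separate its exons or UTRs. The coordinates are the table's own, and its build is not stated.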

How the data were processed

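Messenger RNA libraries of 8 samples were sequenced as read pairs, and the table was deposited for all of them together. The submitters' processing notes name cutadapt 1.9 (adapter trimming) and HISAT2 2.2.1 (alignment). The library protocol marks strand and adds molecular identifiers, per the labels. No source used here names the counter or says whether it used either, nor the annotation or build. The expected counts deposited by the authors are whole numbers with an excess at multiples of 4 (8018 values of 4, 3344 of 3 and 2180 of 5), so 1 fragment may count as 4 units. The authors also deposited FPKM, which scales for length and depth.

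Here edgeR 4.0.16 under R 4.3.3 was run on the counts: filterByExpr (minimum count 10; 16006 genes tested, 10842 left out), TMM scaling and the quasi-likelihood test, structured against smooth, with a Benjamini-Hochberg threshold of 0.05. Log2 CPM used a prior count of 2. Alternatives were other filters and scalings, DESeq2 1.42.0, limma 3.58.1 (voom, and log2 FPKM plus 0.5, 0.1 or 1), the replicate number as a block, correction for GC content and length, counts divided by 4, and each library left out. The edgeR step was also run on simulated counts, and no result given here rests on that run. Exact permutation tests used scipy 1.17.1, and figures matplotlib 3.10.9. RefSeq promoter motifs were matched letter by letter.

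The genes and lists were chosen with earlier results of these data known. Named genes were the 10 by symbol, the list members past the threshold or else the most abundant one, and the 3 genes most alike to each called gene; other named genes are marked in the text as named after their values were seen.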

Additional observations from a re-analysis of the deposited data

Results flagged for a closer look

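Of 26 groups of 4 values examined (each of the 10 genes and 3 ratios on each surface), 1 held a library far from the others. Gclm was at 132 CPM in smooth 4, and the next smooth library was at 109 CPM, a gap of 0.843 of the group's range against a critical value of 0.829. Chance flags about 1 in 20 such groups.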

How the results depend on the processing

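Each of the 10 genes kept the sign of its fold change under all 20 alternatives, and Hmox1 and Osgin1 were called lower under all 20. The log2 fold change of Hmox1 ran from -0.38 to -0.31 and of Osgin1 from -0.67 to -0.49. Under every alternative 0 of the 10 were called higher. With the replicate number as a block, 499 of all genes were called (125 higher, 374 lower). Of the 10, 4 were then called lower, adding Gclm (edgeR adjusted p = 0.0307) and Txnrd1 (0.0339). The labels do not say whether same-numbered libraries were handled together. Deviations of same-numbered libraries correlated at -0.159 to 0.076 and those of other pairs at -0.211 to 0.197. Only 1 of 8 libraries correlated best with its own number. These correlations gave no sign that the numbers pair the samples, but with 4 libraries per surface they cannot exclude it. The count of all genes called, 601 (161 higher, 440 lower), was 189 (47 and 142) with no filter on low counts, 1433 (553 and 880) by DESeq2, 147 (61 and 86) after correction for GC content and length, and 191 (67 and 124), 242 (89 and 153) and 187 (65 and 122) by limma on FPKM with pseudocounts of 0.5, 0.1 and 1. The cause was not tested. With 1 library left out it ranged from 88 to 597 (21 to 170 higher, 67 to 427 lower), with 88 genes when structured 4 was dropped, 125 for structured 2, 306 for structured 1, 166 for smooth 3, 219 for smooth 4 and 240 for smooth 2, and fewer samples enter those fits; 2 to 3 of the 10 genes were then called lower. The log2 differences of the ratios with 1 library left out were -0.38 to -0.25 for Gclm to Gclc, -0.44 to -0.32 for Hmox1 to Hmox2 and -0.25 to -0.08 for Nfe2l2 to Keap1; with 4 against 3 libraries the exact test cannot pass 0.0571. Nqo1 had the fewest counts of the 10, 70 to 134 units per library, so counting error weighs most on it.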
